A study of Mus musculus with 16 samples.

Results

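Wnt proteins are secreted lipid-modified ligands that bind Frizzled receptors at the cell surface, and the genes described here are the ligands, the Frizzled receptors, the Lrp coreceptors, the R-spondins that strengthen the signal, the secreted antagonists and the feedback gene Axin2. Members were matched by symbol, under a rule chosen with earlier results of these data known. It took Wnt, Fzd, Sfrp, Dkk or Rspo followed by a digit and at most a letter or a second digit. Frzb, Wif1, Axin2, Lrp5 and Lrp6 were added. The rule gave 44 genes of the 25719 listed in the count files: 17 ligands, 10 Frizzled receptors, 2 coreceptors, 4 R-spondins, 10 antagonists and Axin2. Wnt10a and Wnt10b carry 2 digits and a letter, fall outside the rule and are treated with the rest of the pathway.

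The study compared RNA from tail tendon fascicles, the collagen-rich strands of the mouse tail, between 8 libraries labelled wild type (WT) and 8 labelled knockout (KO). The knockout is ScxCre;Vhlf/f: a Cre recombinase that is driven by Scx, a gene of tendon cells, acts on floxed alleles of Vhl. Vhl encodes the recognition part of the ubiquitin ligase that marks hypoxia-inducible factors (HIF) for breakdown. The genotype of the wild type libraries beyond that label, and the age, sex and number of animals behind each library, are not given in the sources used here, and each library is a mixture of all cells of the dissected strands. Because nothing says that libraries of a group came from separate animals, p-values measure the spread between these libraries. A lower level in such bulk RNA cannot be told apart from fewer cells that make the transcript.

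When a Wnt protein brings a Frizzled receptor and Lrp5 or Lrp6 together, the complex that destroys β-catenin is inhibited, β-catenin builds up and acts with TCF/LEF factors on target genes such as Axin2. Other Wnt proteins, Wnt5a among them, act mainly without β-catenin, through planar cell polarity or calcium. Antagonists work either by binding the ligand, as Wif1 and the Sfrp proteins do, or by occupying the Lrp coreceptors, as Dkk1 and Dkk2 do. Wnt signals are known in the formation of tendon, cartilage and bone.

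The knockout libraries held 10488355 to 18753254 counts and the wild type libraries 10792900 to 16379401. Levels are given in CPM, counts relative to a library total scaled by TMM (trimmed mean of M-values), and the floor of 3 counts lay between 0.145 and 0.336 CPM. Vhl followed the labels, at 7.51 to 10.9 CPM in the knockout and 14.1 to 25.8 CPM in the wild type. The tendon gene Tnmd was abundant in both groups, at 819.5 to 1969.9 CPM in the knockout and 1739 to 3269 CPM in the wild type. Markers of other cells differed between libraries. The 14 skeletal muscle markers summed to over 5000 CPM in knockout libraries 6, 7 and 8 and in wild type library 5, and 1 of the 14 passed the test. The 15 endothelial markers summed to between 82.1 and 654 CPM in the knockout and between 52.3 and 72.9 CPM in the wild type, with 8 of the 10 tested markers higher; Tie1, Cldn5, Sox17 and Sox18 had at most 3 counts in every wild type library and no marker of the list was at 0 everywhere. The mural markers, of pericytes and smooth muscle, summed to 377 to 2302 CPM in the knockout against 359 to 516 CPM, with 7 of the 10 tested higher and 1 lower, and their median log2 fold change was 3.32, against 2.87 for the endothelial list. Of 10 tenocyte markers 6 were lower and 1 higher in the knockout, and their sum was 77615 to 181243 CPM there against 130910.0 to 380923 CPM. The part of these shifts in the results for the members was not tested, beyond the fits with a marker score and without the muscle-rich libraries given beside them.

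Of the 44 members, 28 passed the expression filter and 15 of these passed the threshold of an adjusted p under 0.05 (quasi-likelihood test of edgeR, Benjamini-Hochberg over all 14803 tested genes). Over all tested genes 48.3% passed, so the share of the members was near that of the transcriptome. Higher in the knockout were Lrp5, Fzd7, Fzd1, Fzd6, Wnt5b, Rspo3, Dkk3 and Sfrp2, 8 genes, against 25.6% of all tested genes. Lower were Wnt16, Wnt5a, Fzd9, Fzd5, Lrp6, Wif1 and Dkk2, 7 genes, against 22.7%. A change of at least 2-fold past the threshold was found for 7 members, 2 higher and 5 lower, where 13.2% of all tested genes changed as much, 8.3% higher and 4.91% lower. Of the 28 tested members 9 were called with the ranges of the groups apart, against 19.4% of all tested genes. The median log2 fold change of the 28 tested members was 0.00, and that of all tested genes 0.02. Sfrp2 passed the filter only because of its level in the knockout, so it could hardly have been tested without differing. Scaled to total counts instead, 18 members passed, 12 higher and 6 lower, where 65.4% of all tested genes passed, 55.9% higher and 9.56% lower. The added ones were Fzd2 (0.46), Fzd4 (0.47), Wnt9a (0.29) and Axin2, and Lrp6 was lost. With the endothelial score, the mean log2 level of that marker list, as a covariate, 15 members passed, against 30.6% of all tested genes. That score was 2.31 to 5.59 in the knockout and 1.5 to 2.36 in the wild type. Because it nearly follows genotype, fits with this covariate can hardly separate score from genotype, and their values here and below are uncertain. Adding the muscle score instead left 14, against 43.8%. Without the 4 muscle-rich libraries 17 passed, 8 higher and 9 lower, against 40.9% (21.9% and 19.0%).

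**Figure D1:**
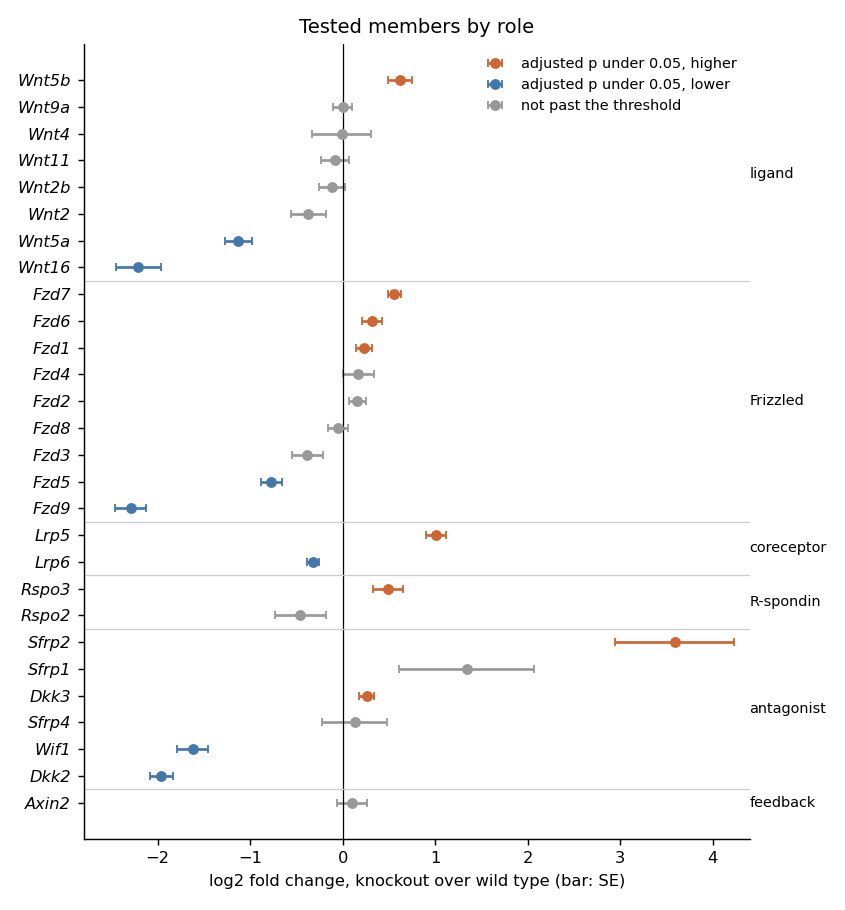
Log2 fold change of each tested member, knockout over wild type, with its standard error (horizontal axis, log2 scale), ordered by role. Orange points passed the threshold as higher (8 genes), blue points as lower (7 genes) and grey points did not pass it (13 genes).

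Promoters are shown for the 5 members that changed at least 2-fold past the threshold and have an entry in the RefSeq promoter table, the 250 bases before the start of the gene, 5′ to 3′ on the gene's strand. Lrp5 and Wnt5a have no entry and are named only. Capitals mark the core of the HIF response element, ACGTG or GCGTG, on either strand; TCF/LEF sequences, CTTTGAT or CTTTGAA on either strand, were searched too and are absent from these 5 windows. Coordinates are those of the table's build, GRCm38.p6.
Wnt16 (chr6:22287977-22288226, plus strand): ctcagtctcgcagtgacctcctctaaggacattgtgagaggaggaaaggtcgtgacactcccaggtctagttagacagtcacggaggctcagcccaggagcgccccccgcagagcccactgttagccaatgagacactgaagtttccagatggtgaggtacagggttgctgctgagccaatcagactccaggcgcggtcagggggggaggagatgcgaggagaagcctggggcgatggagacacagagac
Fzd9 (chr5:135251048-135251297, minus strand): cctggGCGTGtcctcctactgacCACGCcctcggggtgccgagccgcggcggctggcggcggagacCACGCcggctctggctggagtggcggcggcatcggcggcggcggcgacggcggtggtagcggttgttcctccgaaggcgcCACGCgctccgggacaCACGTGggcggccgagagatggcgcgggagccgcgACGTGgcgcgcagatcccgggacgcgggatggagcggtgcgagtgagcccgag
Wif1 (chr10:121033754-121034003, plus strand): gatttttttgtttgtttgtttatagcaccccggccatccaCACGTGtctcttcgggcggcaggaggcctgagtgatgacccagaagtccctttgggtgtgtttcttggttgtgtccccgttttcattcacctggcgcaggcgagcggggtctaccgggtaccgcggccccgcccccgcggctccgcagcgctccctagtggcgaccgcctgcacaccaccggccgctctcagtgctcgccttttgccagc
Dkk2 (chr3:132085042-132085291, plus strand): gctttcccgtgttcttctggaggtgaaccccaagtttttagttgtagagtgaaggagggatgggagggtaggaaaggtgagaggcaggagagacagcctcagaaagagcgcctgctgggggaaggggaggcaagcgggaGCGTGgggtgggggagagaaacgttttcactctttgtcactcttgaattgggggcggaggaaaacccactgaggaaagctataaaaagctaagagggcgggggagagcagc
Sfrp2 (chr3:83766071-83766320, plus strand): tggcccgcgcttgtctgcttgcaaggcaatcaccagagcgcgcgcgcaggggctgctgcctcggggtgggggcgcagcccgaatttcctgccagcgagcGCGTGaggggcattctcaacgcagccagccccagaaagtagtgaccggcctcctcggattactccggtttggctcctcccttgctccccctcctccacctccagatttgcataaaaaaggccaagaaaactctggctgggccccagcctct

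These windows differ in how many HIF element cores they hold. The Fzd9 window holds 7 matches, of which ACGTG at 87 bases before the start and its partner on the other strand overlap in CACGTG. The Wif1 window holds the same overlapping pair, 209 bases before the start, and Dkk2 and Sfrp2 hold a single GCGTG, at 111 and 151 bases. The Wnt16 window holds none. Among all 32851 promoters listed by RefSeq, 38.6% hold at least 1 such core and 7.48% a TCF/LEF sequence. Of the 29 members with an entry, 16 have an entry with a core and 3 (Dkk1, Wnt11 and Wnt5b) one with a TCF/LEF sequence. Of the 16, Dkk2, Fzd9, Sfrp2, Wif1 and Wnt5b were called. The others, most of the 16, were not called or not tested, such as Wnt9a and Rspo4. Counted by entry, as for all promoters, 18 of the 32 member entries hold a core.

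Among the ligands Wnt16 and Wnt5a fell, Wnt5b rose and Wnt9a did not pass the threshold. Wnt16 (ENSMUSG00000029671, chromosome 6), a ligand known from bone and joint tissue, was measured at 22.3, 29.2 and 35.5 CPM in the lowest, median and highest wild type library. In the knockout it lay at 2.81, 5.80 and 12.3 CPM. Every knockout library was below every wild type library, and the knockout libraries spread more widely relative to their mean (6.42 ± 3.16 against 29.3 ± 4.91 CPM, SD, n = 8). The log2 fold change was -2.21 (SE 0.243, adjusted p = 8.35e-07), or 4.64-fold lower. With the endothelial score as a covariate the difference was -1.51 (adjusted p = 0.00207).

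Wnt5a (ENSMUSG00000021994, chromosome 14), the best-known ligand of β-catenin-independent signalling, was measured at 12.6, 18.3 and 23.0 CPM in the wild type and at 5.83, 8.91 and 10.6 CPM in the knockout (lowest, median and highest library). The groups did not overlap. The decrease was 2.19-fold (log2 fold change -1.13, SE 0.147, adjusted p = 2.80e-06). Its relative Wnt5b was higher in the knockout, 13.1 ± 2.55 CPM against 8.55 ± 1.29 (SD, n = 8), with some overlap between the groups (log2 fold change 0.62, SE 0.127, adjusted p = 4.66e-04). Exons of Wnt5a overlap Gm2670 on the other strand in the annotation, so its counts are uncertain if strand was ignored. The same holds for Axin2, Rspo3, Fzd6, Wnt11 and Sfrp2, which overlap unlisted genes on the other strand.

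Wnt9a (ENSMUSG00000000126, chromosome 11), a ligand with a known role in joint formation, had the highest length-scaled level of the ligands. Wild type libraries had 22.5 ± 3.83 CPM per kb of exon and knockout libraries 22.5 ± 3.09 (SD, n = 8), a difference in log2 level of 0.00 (SE 0.102, adjusted p = 0.998). It made up 55.4% of the summed length-scaled level of the 17 ligands of the symbol rule in the wild type (48.0% to 59.2% over libraries) and 64.6% in the knockout (61.6% to 68.5%). Wnt10b, outside the rule, is not part of this sum. Its level per kb was 5.59 ± 1.48 CPM for wild type libraries and 2.84 ± 0.600 for knockout libraries (SD, n = 8). Counting Wnt10b would lower every share given here, and such shares were not computed. Wnt16 took 4.17% of that sum in the knockout against 16.9%, and Wnt5b 14.3% against 8.08%. The shares of Wnt16 and Wnt9a did not overlap between the groups, with 11.7% to 21.9% and 1.96% to 7.30% for Wnt16, while those of Wnt5b just met, at 5.09% to 9.91% and 9.74% to 18.8%.

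The 4 remaining tested ligands did not pass the threshold: the log2 difference was -0.37 for Wnt2, -0.11 for Wnt2b and -0.08 for Wnt11, with adjusted p-values of 0.116, 0.561 and 0.694, and Wnt4, near 1 CPM in both groups, differed by -0.01 (SE 0.317, adjusted p = 0.991). Wnt2 passed at -0.47 without wild type library 5 (adjusted p = 0.0312). The other 9 ligands were not tested. Wnt6 reached 9 counts and Wnt8b 7 counts in their highest library. Wnt1 and Wnt3 had at most 5 and 4 counts. Wnt3a, Wnt7a, Wnt7b, Wnt8a and Wnt9b had at most 2 counts in any library, under the floor. Wnt10b, next in the family but outside the symbol rule, was lower in the knockout, 9.67 ± 2.04 CPM against 19.0 ± 5.03 (SD, n = 8; log2 -0.98, SE 0.154, adjusted p = 3.14e-05), and Wnt10a was not tested, with at most 8 counts.

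**Figure D2:**
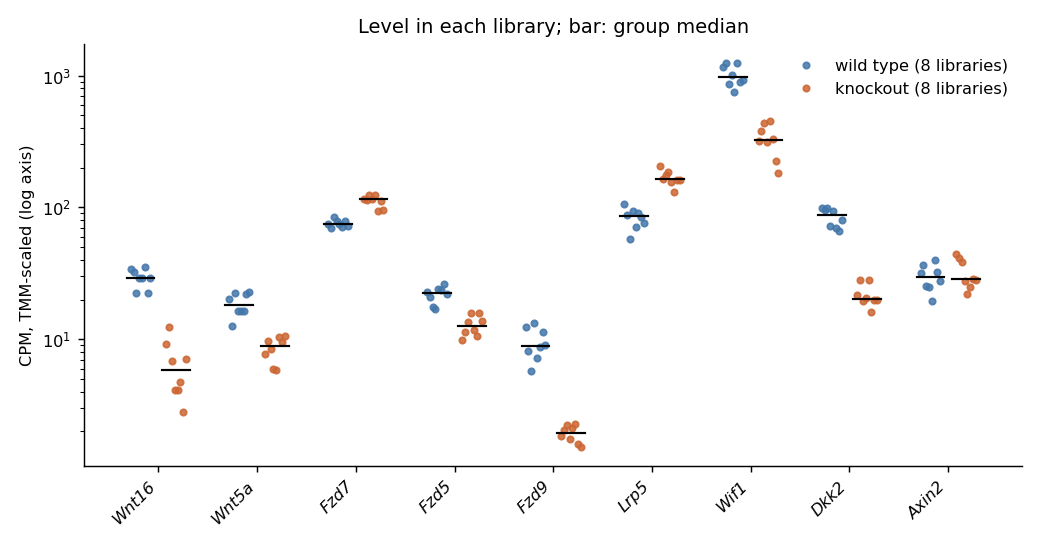
CPM in each library on a log axis for 8 members whose groups do not overlap and for Axin2. Points are libraries (8 wild type in blue, 8 knockout in orange) and bars group medians; Wnt16, Wnt5a, Fzd5, Fzd9, Wif1 and Dkk2 are lower and Fzd7 and Lrp5 higher in every knockout library, while the Axin2 groups lie over each other.

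Among the Frizzled receptors the most abundant one, Fzd1, changed little, Fzd7 rose and Fzd9 and Fzd5 fell. Fzd7 (ENSMUSG00000041075, chromosome 1) was measured at 70.1, 74.5 and 84.98 CPM in the wild type and at 93.1, 115 and 125 CPM in the knockout (lowest, median and highest library). No knockout library reached down to the wild type range. The log2 fold change was 0.56 (SE 0.0667, adjusted p = 8.09e-07). Fzd9 (ENSMUSG00000049551, chromosome 5), a receptor studied in bone-forming cells, lay at 5.77, 8.88 and 13.2 CPM in the wild type and at 1.53, 1.95 and 2.28 CPM in the knockout. The decrease, -2.29 on the log2 scale (SE 0.167, adjusted p = 1.04e-09) or 4.89-fold, was within the error of that of Wnt16, and the knockout libraries lay close together.

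Fzd5 (ENSMUSG00000045005, chromosome 1) also fell without overlap, from 17.1, 22.4 and 26.5 CPM to 9.79, 12.5 and 15.95 CPM (lowest, median and highest library), a log2 difference of -0.77 (SE 0.114, adjusted p = 1.41e-05). Its exons overlap the listed gene Gm38058 on the other strand, so the counts of both are uncertain. Fzd1 was higher by 0.23 (SE 0.0890, adjusted p = 0.0377) and Fzd6 by 0.32 (SE 0.111, adjusted p = 0.0240), both with overlap. Neither call was firm. Fzd1 lost the threshold when knockout library 2, 3 or 7 or wild type library 3, 4, 6, 7 or 8 was left out, with values between 0.19 and 0.23. It was also lost, at 0.22, with DESeq2 size factors. Fzd6 lost it without knockout library 7 (0.24), without wild type library 3 (0.28), without the libraries with Scx over 200 CPM (0.32), with the muscle score as a covariate (0.25) and without the 4 libraries richest in muscle markers (0.13). With the endothelial score as a covariate its direction turned, at -0.10 (adjusted p = 0.654).

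Fzd2, Fzd3, Fzd4 and Fzd8 did not pass the threshold, at 0.16, -0.38, 0.17 and -0.05 on the log2 scale (adjusted p = 0.180, 0.0738, 0.432 and 0.718). Fzd2 passed at 0.54 with the endothelial score as a covariate and at 0.31 without the muscle-rich libraries. Fzd3 passed at -1.06 and -0.74 in the same fits, at -0.45 without knockout library 6 or wild type library 3, and at -0.49 without knockout library 7. Fzd3, Fzd4 and Fzd6 were highest in knockout libraries 6, 7 and 8 among the knockout libraries, at 3.90 to 4.41, 57.3 to 75.9 and 18.1 to 21.3 CPM against 2.13 to 2.83, 34.6 to 55.0 and 12.6 to 16.5 CPM in the other 5. Fzd4 is known as a receptor of endothelial cells. Fzd10 was not tested, with 3 to 33 counts per knockout library and 3 to 15 per wild type library.

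Scaled to exon length, the order of the Frizzled receptors in the wild type was Fzd1 at 49.7 ± 5.41, Fzd2 at 17.4 ± 1.32, Fzd7 at 16.7 ± 1.11, Fzd8 at 12.2 ± 2.18 and Fzd4 at 6.78 ± 1.49 CPM per kb (SD, n = 8). Fzd2 and Fzd7 did not differ there beyond their spread. In the knockout the order was Fzd1 at 58.4 ± 8.17, Fzd7 at 24.7 ± 2.57, Fzd2 at 19.4 ± 3.68, Fzd8 at 11.8 ± 1.81 and Fzd4 at 7.61 ± 2.21 CPM per kb. The share of Fzd7 in the summed Frizzled level was 14.8% in the wild type (13.0% to 17.1%) and 19.3% in the knockout (17.5% to 21.8%), while Fzd1 held 43.8% and 45.3%. The sum itself overlapped, with 102 to 126 CPM per kb in the wild type and 112 to 147 in the knockout.

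**Figure D3:**
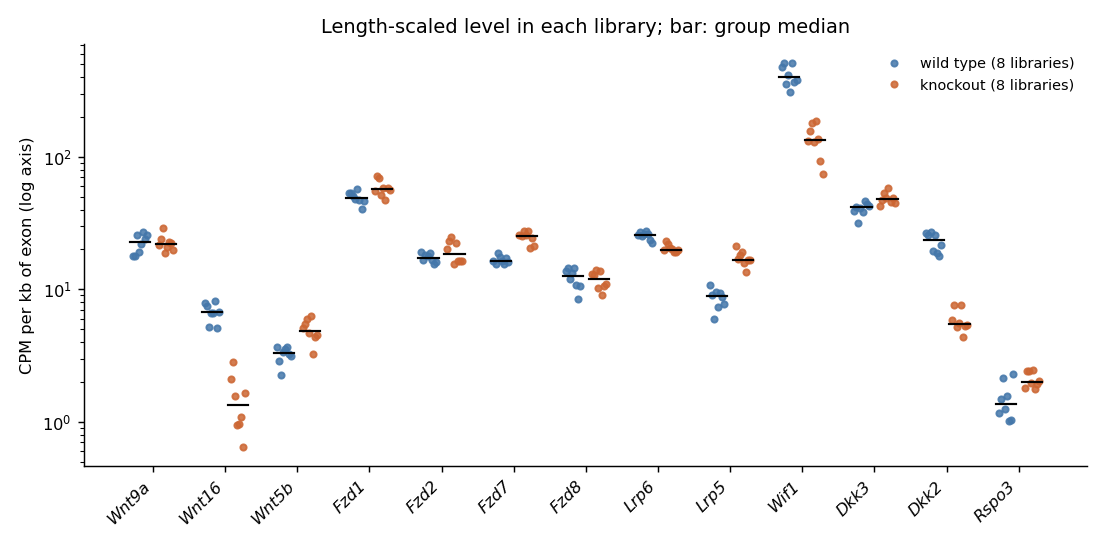
CPM per kb of merged exon length in each library on a log axis, for the more abundant members of each class. Points are libraries (8 wild type in blue, 8 knockout in orange) and bars group medians; Wif1 stands above all others in both genotypes and Lrp5 comes closer to Lrp6 in the knockout.

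The coreceptors moved in opposite directions. Lrp5 (ENSMUSG00000024913, chromosome 19), whose human counterpart is known for its effect on bone mass, was measured at 57.8, 86.2 and 105 CPM in the wild type and at 131, 163 and 206 CPM in the knockout (lowest, median and highest library). The groups did not overlap. The log2 fold change was 1.01 (SE 0.108, adjusted p = 2.16e-07), and over all alternatives it lay between 0.94 and 1.33. Lrp6 (ENSMUSG00000030201, chromosome 6) was lower by a smaller amount, 279.6 ± 20.1 CPM in the knockout against 349 ± 23.4 (SD, n = 8; log2 fold change -0.32, SE 0.0632, adjusted p = 3.13e-04). That call was lost at -0.02 when libraries were scaled to total counts and at -0.17 with the endothelial score as a covariate. Of the length-scaled sum of both coreceptors, Lrp5 held 25.0% in the wild type (19.0% to 29.5%) and 45.6% in the knockout (41.4% to 51.7%).

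R-spondins act through Lgr receptors and the ligases Znrf3 and Rnf43, and so keep Frizzled receptors at the surface. Rspo3 rose, 6.46 ± 0.898 CPM in the knockout against 4.59 ± 1.50 (SD, n = 8; log2 0.49, SE 0.165, adjusted p = 0.0197), with overlap. Rspo2 differed by -0.46 (SE 0.276, adjusted p = 0.177), and Rspo1 and Rspo4 were not tested, with at most 4 and 3 counts in any library.

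The largest change in absolute level was in the antagonists. Wif1 (Wnt inhibitory factor, ENSMUSG00000020218, chromosome 10), which binds Wnt proteins outside the cell, had the highest mean level of the members in both genotypes. Its wild type libraries had 756, 975 and 1241 CPM (lowest, median and highest). The knockout libraries had 182, 325 and 452 CPM, all below the wild type. The decrease was 1.62 on the log2 scale (log2 fold change -1.62, SE 0.168, adjusted p = 1.73e-07), or 3.07-fold. Of the knockout libraries rich in muscle and endothelial markers, 7 and 8 had the lowest values, 226 and 182 CPM, and 6 had 331 CPM, above the median. Wild type library 5, rich in muscle markers, had the lowest value of its group, 756 CPM. With the endothelial score as a covariate the difference was -0.92 (adjusted p = 8.86e-04), and without the 4 muscle-rich libraries it was -1.47.

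Dkk2 (ENSMUSG00000028031, chromosome 3), which binds Lrp5 and Lrp6, fell from 66.1, 87.4 and 99.6 CPM to 16.1, 20.3 and 28.1 CPM (lowest, median and highest library). The gap between the groups was wide. The log2 fold change was -1.96 (SE 0.122, adjusted p = 1.35e-10), the smallest adjusted p of any member, and it lay between -2.03 and -1.63 over all alternatives. Dkk3, a divergent relative that is not known to bind the Lrp coreceptors, was higher by 0.26 (137 ± 15.1 CPM in the wild type, 164 ± 17.1 in the knockout, SD, n = 8; SE 0.0786, adjusted p = 0.00926), with overlap. Dkk1 had 0 counts in all 16 libraries and Dkk4 at most 6. On the length-scaled axis the 10 antagonists summed to 199.98 ± 40.1 CPM per kb in the knockout against 487 ± 75.9 (SD, n = 8), and Wif1 held 66.9% of that sum against 85.6%.

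The Sfrp proteins are secreted relatives of the Frizzled ligand-binding domain. Sfrp2 (ENSMUSG00000027996, chromosome 3) was nearly undetected in the wild type, at 0 to 9 counts or 0 to 0.785 CPM, median 0.529. In the knockout it had 20 to 284 counts, or 1.09, 3.11 and 14.1 CPM (lowest, median and highest). The groups did not overlap, and knockout libraries 4, 7 and 8 stood out at 14.1, 13.8 and 8.57 CPM. The log2 fold change was 3.59 (SE 0.642, adjusted p = 2.04e-04). It was 3.01 without the 4 muscle-rich libraries (adjusted p = 0.00347), and the call was lost at 1.39 with the endothelial score as a covariate (adjusted p = 0.218).

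Sfrp1 (ENSMUSG00000031548, chromosome 8) split the knockout libraries. It was measured at 14.1, 9.99 and 18.8 CPM in knockout libraries 6, 7 and 8 and at 0.482 to 1.70 CPM in the other 5, with 1.59 to 3.38 CPM in the wild type. The log2 difference over all libraries was 1.34 with an SE of 0.732 and missed the threshold (adjusted p = 0.145). Without the 4 muscle-rich libraries it was -1.43 (SE 0.291, adjusted p = 8.22e-04), and with the endothelial score as a covariate -3.33 (adjusted p = 0.00289). Libraries 6, 7 and 8 also had the highest sums of the knockout for endothelial (427 to 654 CPM), mural (1813 to 2302 CPM), muscle (17659 to 25603 CPM) and adipocyte markers (38.3 to 77.6 CPM). Wild type library 5, with muscle markers at 11144 CPM but endothelial markers at 72.9 CPM, had Sfrp1 at 1.82 CPM. The part of these cell types in the level of Sfrp1 was not tested further. Sfrp4 did not pass the threshold (log2 difference 0.13, adjusted p = 0.786), and Sfrp5 and Frzb, which were not tested, reached at most 24 and 6 counts.

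**Figure D4:**
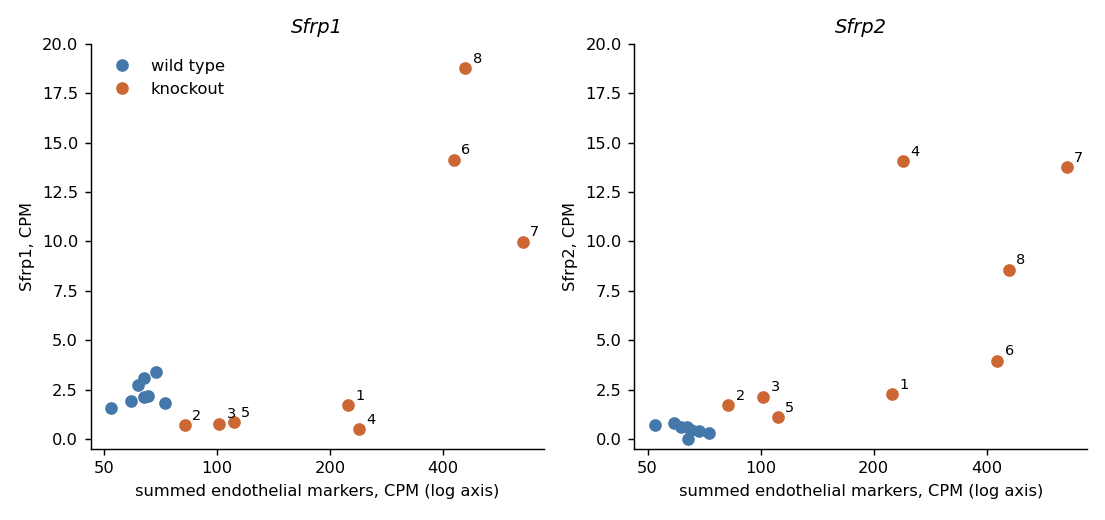
Level of Sfrp1 (left) and Sfrp2 (right) in CPM against the summed CPM of 15 endothelial markers (log axis), 1 point per library, with the number of each knockout library. For Sfrp1 knockout libraries 6, 7 and 8 lie at 9.99 to 18.8 CPM and the other 5 below 2 CPM; for Sfrp2 library 4 is as high as library 7.

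Axin2 (ENSMUSG00000000142, chromosome 11), the feedback inhibitor that β-catenin induces in many tissues, did not differ beyond its spread. Its values were 19.4, 29.6 and 39.7 CPM in the wild type and 22.0, 28.5 and 44.1 CPM in the knockout (lowest, median and highest library), so the ranges lay over each other. The log2 difference was 0.10 (SE 0.159, adjusted p = 0.620). With libraries scaled to total counts it passed the threshold at 0.42, where the median of all tested genes was itself 0.32. With the endothelial score as a covariate it was 0.48 and did not pass (adjusted p = 0.149), with that median at 0.01.

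Beyond the members, 85 other genes of the pathway were listed, of which 75 were tested and 47 passed the threshold, 15 higher and 32 lower in the knockout. The lists were written with earlier results of these data known, and their share, 62.7%, stands beside 48.3% of all tested genes. Their median log2 fold change was -0.15, against 0.02 for all tested genes. The split changed with the scaling, as did that of all tested genes. With total counts 48 passed, 29 higher and 19 lower, where 55.9% of all tested genes were higher and 9.56% lower. On that scale 13 calls were lost, of which Ctnnb1, Dvl2 and Ryk changed sign (0.11, 0.13 and 0.12). Adding the endothelial score left 34, 9 higher and 25 lower, where 30.6% of all tested genes passed.

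A further list held receptors outside the Frizzled family, receptor partners and the ligases Znrf3 and Rnf43, and most of its tested genes were lower. Of the 13 tested, 9 fell and 3 rose, where 22.7% and 25.6% of all tested genes did. With total counts 7 were lower and 4 higher, where 9.56% and 55.9% of all tested genes were. Adding the endothelial score left 9, 2 higher and 7 lower, where 30.6% of all tested genes passed. The kinase Ror2, a receptor for Wnt5a, was at 10.9 ± 1.71 CPM in the knockout against 17.5 ± 1.64 (SD, n = 8; log2 -0.69, SE 0.0959, adjusted p = 6.80e-06), without overlap. The R-spondin receptor Lgr4 fell by 0.68 (adjusted p = 9.35e-07), and Reck and Adgra2, partners in the recognition of Wnt7 ligands, fell by 0.85 (adjusted p = 3.13e-08) and 0.67 (adjusted p = 1.26e-07). Lgr5, another R-spondin receptor and a known stem cell marker in the gut, went from 0.579 to 1.13 CPM in the wild type to 3.84 to 19.3 CPM in the knockout, or 3.47 on the log2 scale (SE 0.309, adjusted p = 2.97e-08). It was 2.13 with the endothelial score as a covariate and 3.00 without the 4 muscle-rich libraries, and passed the threshold under all 29 alternatives. Like Sfrp2, Lgr5 passed the filter through its knockout level. Adgra2 shares exon sequence with Brf2 on the other strand, as the target genes Fosl1 and Ccnd1 do with Ccdc85b and LTO1, and Kremen2, Tspan12 and Dact2 overlap unlisted genes there, so these counts are uncertain. Tspan12, a partner of Fzd4, rose by 1.08 (SE 0.132, adjusted p = 1.30e-06).

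Another list covered the making of Wnt proteins and the extracellular control of their signals, with blockers and some genes that favour the signal. Of its 10 tested genes 3 were higher and 3 lower, a share near the 48.3% of all tested genes. Porcn, the enzyme that attaches the lipid, rose by 0.72 (SE 0.0848, adjusted p = 7.33e-07), and Wls, the carrier that takes Wnt proteins to the surface, differed by -0.17 (adjusted p = 0.0922). Kremen1 and Kremen2 bind Dkk proteins together with Lrp6. Kremen1 rose by 0.66 (SE 0.0682, adjusted p = 1.45e-07) and Kremen2, much less abundant, fell by 2.41 (3.78 ± 1.14 to 0.699 ± 0.245 CPM, SD, n = 8; adjusted p = 5.23e-08). Kremen2 passed the filter through its wild type level, with 4 to 20 counts per knockout library. Igfbp4, an IGF-binding protein that also blocks Lrp6, was at 163 ± 54.0 CPM in the knockout against 761 ± 155 (SD, n = 8; log2 -2.22, SE 0.206, adjusted p = 6.47e-08). Cthrc1, a secreted protein that favours Wnt5a signalling through Ror2, was at 36.9 ± 9.23 CPM against 9.08 ± 2.77 (SD, n = 8; log2 2.03, SE 0.214, adjusted p = 4.79e-07).

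**Figure D5:**
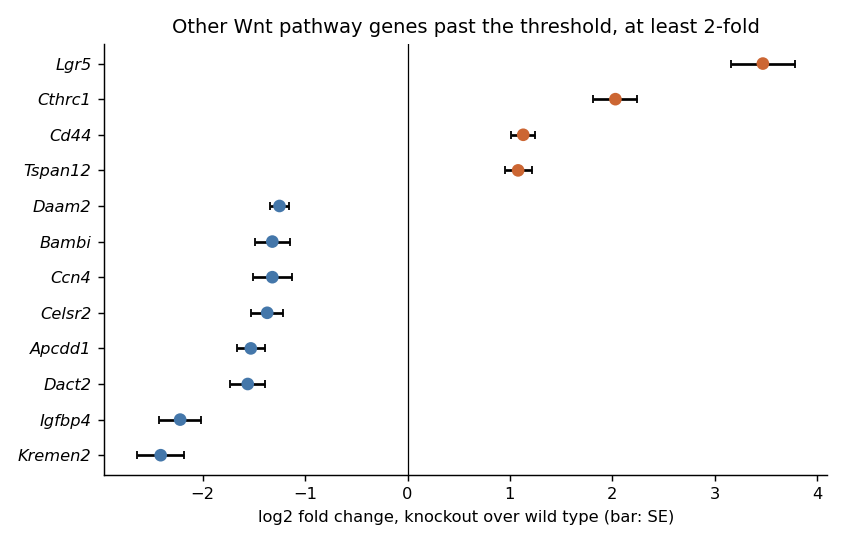
Log2 fold change, knockout over wild type, with its standard error (horizontal axis, log2 scale) for the 12 other Wnt pathway genes that passed the threshold with a change of at least 2-fold. Lgr5, Cthrc1, Cd44 and Tspan12 are higher (orange) and the other 8 lower (blue).

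Of 22 known β-catenin targets 15 were tested, 5 were higher and 4 lower, near the shares of all tested genes (25.6% and 22.7%). With total counts 8 were higher and 3 lower, where 55.9% and 9.56% of all tested genes were. Lgr5 was among the higher ones, with Nkd1 (0.98, SE 0.143, adjusted p = 1.14e-05), a feedback inhibitor that acts on Dvl proteins, Cd44 (1.13, adjusted p = 1.66e-07), Myc (0.78, adjusted p = 9.92e-05) and Fosl1 (0.87, adjusted p = 0.00122). Myc and Fosl1 lost the threshold with the endothelial score as a covariate, at 0.38 and 0.76. Lower were Apcdd1 (-1.53, SE 0.140, adjusted p = 2.79e-08), itself a Wnt inhibitor, Bambi (-1.32, adjusted p = 3.72e-06), Ccn4 (-1.32, adjusted p = 2.00e-05) and the ligase Znrf3 (-0.45, adjusted p = 7.30e-05), which lost the threshold with total counts, at -0.15. Axin2, Nkd2, Tcf7, Ccnd1, Tnfrsf19 and Ccn5 did not pass it. Lef1, Notum and Rnf43 had at most 16, 13 and 4 counts in any library and Sp5 had 0 counts in all, as Dkk1 did. Ascl2, a transcription factor known from intestinal stem cells, was not tested either. It had 8 to 21 counts per knockout library (0.659 to 1.36 CPM) and 2 to 6 per wild type library (0.139 to 0.468 CPM), so its groups did not overlap. The wild type counts lie near the floor, and the share of untested genes set apart in this way was not computed. Draxin, an untested gene of the list for the making of Wnt proteins and the extracellular control of their signals, was apart the other way. It had 0 to 1 counts per knockout library (0 to 0.0809 CPM) and 2 to 5 per wild type library (0.151 to 0.422 CPM). These counts too lie near or under the floor of 3 counts, so little can be read from them.

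Of the 26 tested genes of the β-catenin core, 12 passed the threshold, 4 higher and 8 lower, or 46.2% against 48.3% of all tested genes, and none changed as much as 2-fold. That split changed with total counts, to 11 higher and 1 lower, on a scale where 55.9% of all tested genes were higher and 9.56% lower. Adding the endothelial score left 5, 1 higher and 4 lower, where 30.6% of all tested genes passed. In the planar polarity list 10 of 15 passed, 1 higher and 9 lower, where 22.7% of all tested genes were lower. With total counts 4 were higher and 5 lower, where 55.9% and 9.56% of all tested genes were. On that scale Vangl2, Prickle1, Fuz and Dact1 lost their calls. Prickle1 also lost its call with the endothelial score as a covariate, at -0.24. The call of Dact1 was not firm. It was lost without the expression filter too. Leaving out knockout library 1, 2, 3, 4 or 5 or wild type library 1, 3, 5, 6, 7 or 8 also lost it. Daam2, a formin that works with Dvl, was at 109 ± 14.1 CPM against 259 ± 34.4 (SD, n = 8; log2 -1.25, SE 0.0918, adjusted p = 1.19e-09). Dact2, a Dvl-binding modulator, fell by 1.56 (SE 0.170, adjusted p = 4.84e-07) and the polarity cadherin Celsr2 by 1.37 (SE 0.157, adjusted p = 5.41e-07), all without overlap between the groups.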

How the data were processed

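Gene-level RNA was compared between 8 knockout and 8 wild type libraries, grouped by the titles of the samples. The authors deposited whole-number counts per gene, 1 file per library, with 25719 Ensembl identifiers, of which 25614 matched a symbol. The submitters' processing notes name kallisto, featureCounts and GRCm39; their roles, the versions, the annotation and the use of strand are not given in the sources used here. No pair of libraries within a group agreed within sampling noise (lowest chi-square per degree of freedom 6.54 over 14096 genes).

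The test was edgeR 4.0.16 (quasi-likelihood, robust, two-sided, TMM, default expression filter, genotype as the only term) in R 4.3.3, adjusted by Benjamini-Hochberg over 14803 genes. The other 10916 were not tested. CPM use TMM-scaled totals. Intervals of counting are not given; the floor of 3 counts covers counting error only. Exon lengths, chromosomes and overlaps came from GENCODE M21 (GRCm38) by identifier, so length-scaled levels are approximate. Promoters came from RefSeq (GRCm38.p6); of 32 entries of members, 30 continued into an annotated transcript in the printed direction and none in the reverse. A marker score is the mean log2 CPM (prior count 2) of a list's tested genes. Alternatives were other size factors, total counts, other expression filters, DESeq2 1.42.0, limma 3.58.1 (voom), a replicate block, muscle, endothelial or Y-linked levels as covariates, and left-out libraries. The fit was tested on simulated counts.

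Named were all tested members, pathway genes past the threshold with at least a 2-fold change, and the target list; Ror2, Lgr4, Reck, Adgra2, Porcn, Wls, Kremen1, the untested genes and the pathway genes named for a lost call or changed sign were chosen after their values were seen. Members and lists were chosen with earlier results of these data known. Replicate numbers did not pair the libraries.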

Additional observations from a re-analysis of the deposited data

Results flagged for a closer look

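Among 56 checks of a tested member in a group of 8 libraries, 2 had a library set apart from the rest by a gap over the critical value of Dixon's test, where chance gives about 1 in 20, or 2.8. Sfrp4 was highest in wild type library 3, at a log2 CPM of 5.34 against 4.05 in the next library. Sfrp2 was lowest in wild type library 8, where it had 0 counts, at a log2 CPM of -2.73 against -1.19.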

How the results depend on the processing

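Over 29 alternatives the number of members past the threshold lay between 14 and 18 (15 as reported), with 6 to 12 higher and 6 to 9 lower, and the number of other pathway genes between 34 and 50 (47 as reported). With total counts 18 members passed, 12 higher and 6 lower, on a scale where 65.4% of all tested genes passed and their median was 0.32; the endothelial covariate gave 15, with 30.6% of all tested genes. The fit without the 4 libraries richest in muscle markers (knockout 6, 7 and 8 and wild type 5), chosen after seeing the data, gave 17. With the replicate number as a block 16 members passed, Fzd3 in addition at -0.42; same-numbered libraries correlated between -0.397 and 0.394 in their deviations, and 1 of 8 knockout libraries correlated best with its own number. Of the calls among members, Sfrp2, Fzd1, Fzd6 and Lrp6 were lost under at least 1 alternative.

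Among called genes, 5 changed sign: Fzd6 (-0.10) and Ptk7 (-0.12) with the endothelial covariate, and Ctnnb1 (0.11), Dvl2 (0.13) and Ryk (0.12) with total counts. The other sign changes concerned named genes that had not passed the threshold. With total counts the values were 0.20 for Wnt2b, 0.30 for Wnt4, 0.21 for Wnt11, 0.24 for Fzd8, 0.14 for Ccnd1 and 0.13 for Wls. The endothelial covariate gave -0.51 for Fzd4, 0.03 for Wnt11, -3.33 for Sfrp1, 0.24 for Fzd8, 0.05 for Ccnd1 and -0.18 for Ccn5. The muscle covariate gave -0.02 for Fzd4, -0.24 for Sfrp1 and -0.04 for Sfrp4. Without the muscle-rich libraries values were -0.04 for Fzd4, 0.06 for Wnt11, -1.43 for Sfrp1, -0.12 for Sfrp4, 0.10 for Fzd8 and 0.01 for Ccnd1. Without libraries with Scx over 200 CPM they were 0.21 for Wnt4 and 0.00 for Sfrp4, and limma-voom gave 0.02 for Wnt4 and -0.02 for Tcf7. Wnt9a was -0.01 with DESeq2 size factors and its Wald test, and 0.00 with TMM without the 20 most abundant genes, with no filter and with a mean count of at least 10. Leaving out 1 library at a time gave -0.16 to 0.02 for Wnt2b, -0.21 to 0.15 for Wnt4, -0.06 to 0.04 for Wnt9a, -0.09 to 0.42 for Sfrp4, -0.08 to 0.19 for Tcf7 and 0.00 to 0.17 for Tnfrsf19. The cause was not tested. Depth limits the 16 untested members, most of which lay near or under the floor of 3 counts.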
